A study of Mus musculus with 6 samples.

Results

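The genes described here are 10 transcripts that report on signalling through the ERK kinases in mouse embryonic stem cells (ESCs): the ERK phosphatase genes Dusp4 and Dusp6, the Sprouty and Spred inhibitor genes Spry1, Spry2, Spry4 and Spred1, the ETS transcription factor genes Etv4 and Etv5, and the immediate early genes Egr1 and Fos. They were chosen by gene symbol, and all 10 of 10 were found among the 25170 symbols of the deposited table. RNA-seq was made from 6 libraries of E14, an established mouse ESC line. They are 2 Hnrnpf KO libraries and 1 WT library after LIF removal for 4 days, and 2 Hnrnpf KO libraries and 1 WT library kept in serum with LIF. Hnrnpf encodes an RNA-binding protein that takes part in splicing, and LIF is a cytokine added to keep mouse ESCs self-renewing. The knockout libraries are called number 1 and number 2 as they are labelled. The labels do not say whether a number is a clone, whether it is the same clone in both media, or which part of the gene was deleted. The p-values here thus speak of library-to-library spread, whose source (clone, culture or technical repeat) the labels do not give.

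FGF4 secreted by ESCs acts through FGF receptors, RAS, RAF and MEK to phosphorylate ERK, and this signal pushes mouse ESCs out of the naive state once LIF support is withdrawn. ERK activity induces its own brakes. DUSP phosphatases remove the activating phosphates from ERK, Sprouty and SPRED proteins act upstream near RAS and RAF, and Etv4 and Etv5 are ETS family genes switched on by FGF signalling. Egr1 and Fos are transcribed within minutes of ERK activation through serum response elements, and they also respond to serum and to cell handling.

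Values are FPKM as the authors deposited them, which are scaled to transcript length and library size. The sum of FPKM was between 456155 and 556318 per library, and the number of reads behind a value is unknown. Hnrnpf stood at 95.2 and 27.8 FPKM in knockout cells after LIF removal, against 335 FPKM in wild type cells, and at 98.7 and 37.1 FPKM in knockout cells with LIF, against 342 FPKM in wild type cells. Transcript thus remained in every knockout library, at 8.28% to 28.9% of its wild type counterpart. Number 1 stood at 28.4% after LIF removal and 28.9% with LIF, and number 2 at 8.28% and 10.8%. For Hnrnpf a number was thus alike in both media, so knockout libraries of the same number may not be independent samples. Pou5f1, the core pluripotency factor, lay between 587 and 1145 FPKM in the 6 libraries, so the labelled cell type was borne out by its defining marker. Of 7 feeder fibroblast markers 6 had a mean under 1 FPKM, and the list summed to 5.60 and 8.36 FPKM in knockout and 5.96 FPKM in wild type cells after LIF removal, and to 7.60 and 8.23 FPKM in knockout and 3.33 FPKM in wild type cells with LIF. Most of each sum was a single marker, Thy1. It stood at 4.05 and 5.16 FPKM in knockout and 4.76 FPKM in wild type cells after LIF removal. With LIF it stood at 7.01 and 7.01 FPKM in knockout and 3.16 FPKM in wild type cells.

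Across the 10 genes, Etv5 was the most abundant in every library and Fos the least. Etv5 averaged 128 FPKM over the 6 libraries, Dusp6 39.2, Spry2 37.9, Dusp4 24.9, Egr1 23.5, Spry1 23.1, Spry4 18.7, Etv4 15.8, Spred1 14.7 and Fos 2.74. Neighbours from Dusp6 to Spred1 in this order overlapped in their ranges. Etv5 varied least, with its highest library 1.26 times its lowest, and Spry2 next at 1.38 times. Fos, Dusp6, Dusp4 and Egr1 varied most, at 4.15, 3.75, 3.51 and 3.07 times. The levels of each gene in each library are plotted by group.

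**Figure D1:**
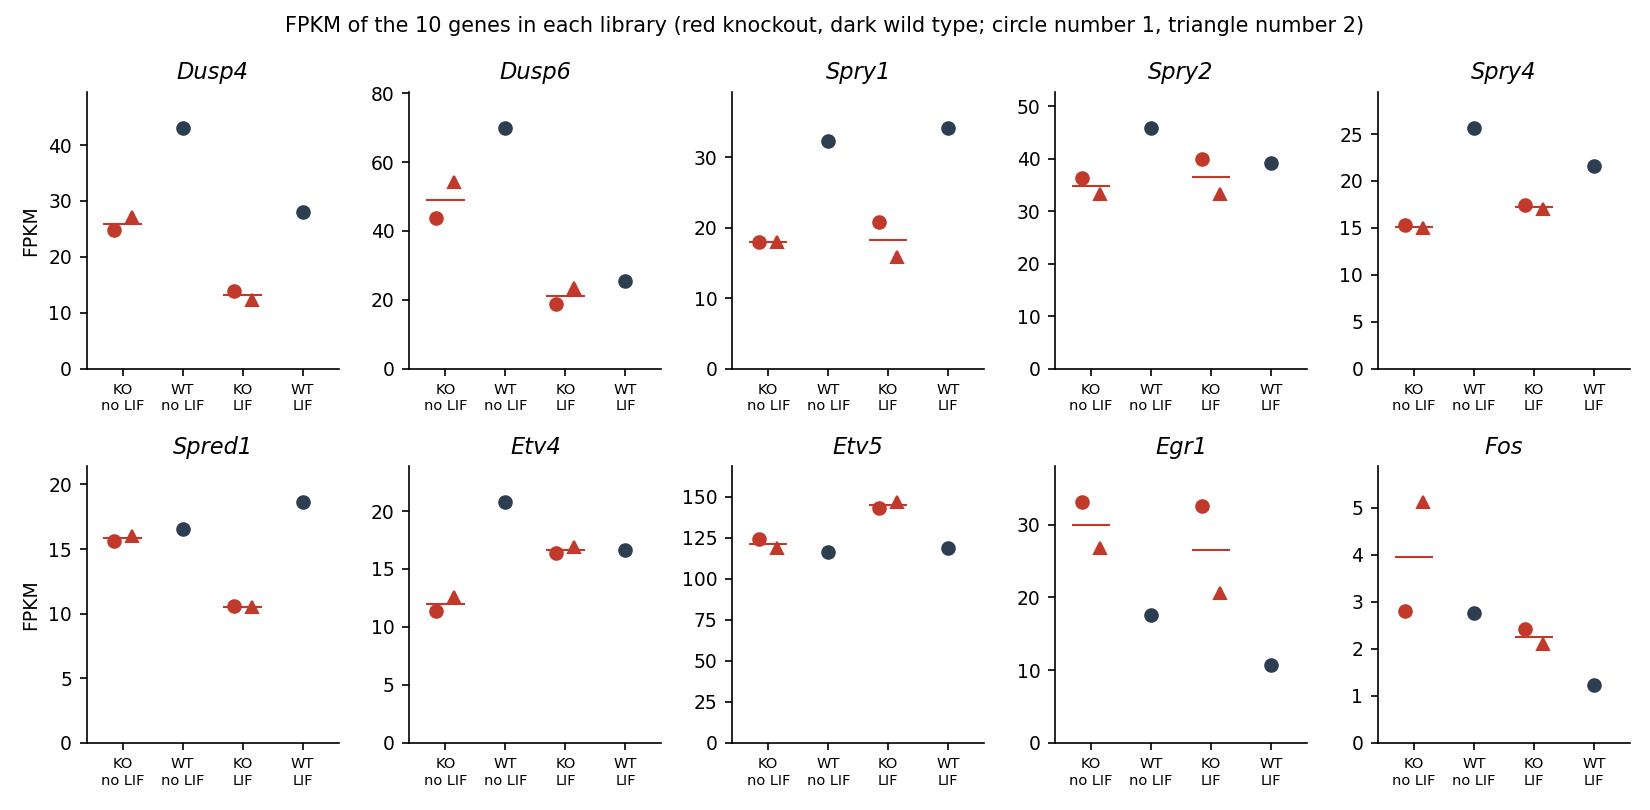
FPKM of each gene (vertical axes, each from 0) in knockout and wild type libraries without and with LIF; red points are knockout libraries (circle number 1, triangle number 2), with a line at their mean, and dark points are the single wild type library of each medium. Dusp4, Spry1 and Spry4 lay lower in every knockout library than in either wild type library, and Egr1 lay higher.

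Differences were tested on log2(FPKM + 1), which understates the change of a low gene such as Fos. limma's moderated test was fitted over the 11785 genes averaging 1 FPKM or more, a filter that all 10 genes passed, and a Benjamini-Hochberg adjusted p under 0.05 counted as a call. The first question was what 4 days without LIF did to these genes. Over both genotypes, 3 libraries without LIF against 3 with it, the phosphatase genes Dusp6 and Dusp4 rose and the other 8 genes did not pass the threshold. Of all tested genes 21.4% were called. That is 2 of 10 higher, where 8.73% of all tested genes were called higher, and 0 lower, where 12.7% were called lower. In 2 of the 10, Dusp6 and Fos, every library without LIF lay above every library with it, as in 14.9% of all tested genes, and in 0 of the 10 all lay below, as in 16.8%. The median difference of the 10 was 0.17, against -0.03 for all tested genes. In the same fit all 7 listed ESC markers fell, among them Esrrb by 1.77 and Sox2 by 0.94, and 3 of 5 epiblast markers, both tested mesoderm markers and 2 of 3 neural markers rose. The epiblast list summed to 407 and 506 FPKM in knockout and 621 FPKM in wild type cells after LIF removal, and to 262 and 349 FPKM in knockout and 181 FPKM in wild type cells with LIF. Its part in the results on these 10 genes was not tested. In bulk RNA, fewer cells of a type and less RNA per cell cannot be told apart.

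Dusp6 encodes a cytoplasmic phosphatase specific for ERK and is a widely used readout of FGF signalling. It stood at 43.7 and 54.3 FPKM in knockout and 69.9 FPKM in wild type cells after LIF removal, and at 18.7 and 23.3 FPKM in knockout and 25.4 FPKM in wild type cells with LIF. Every library without LIF was above every library with it. The difference over both genotypes was 1.27 (SE 0.14, adjusted p = 0.00152) and in knockout cells alone it was 1.19 (SE 0.18, adjusted p = 0.0224). The wild type libraries, 1 against 1 and without a test, differed by 1.43. Dusp6 was the only one of the 10 past a log2 difference of 1 there, as were 3.8% of all tested genes upward and 4.56% downward, 8.36% in all. Its promoter is shown because Dusp6 changed most on LIF removal. Capitals mark CGGAA, the core of many ETS factor sites, on either strand, which occurred 3 times, with first bases at -155, -144 and -61 from the start.
Dusp6, chr10:99262981-99263230, plus strand: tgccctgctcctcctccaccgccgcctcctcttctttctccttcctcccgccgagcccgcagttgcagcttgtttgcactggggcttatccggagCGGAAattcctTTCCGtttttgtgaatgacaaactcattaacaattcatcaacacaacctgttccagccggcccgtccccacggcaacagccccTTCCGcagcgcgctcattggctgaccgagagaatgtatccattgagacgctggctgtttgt

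Dusp4 encodes a nuclear phosphatase of ERK and related kinases. It stood at 24.7 and 27.2 FPKM in knockout and 43.1 FPKM in wild type cells after LIF removal, and at 13.9 and 12.3 FPKM in knockout and 28.0 FPKM in wild type cells with LIF. Within each genotype the libraries without LIF were the higher ones, but the knockout libraries without LIF lay below the wild type library with it. Dusp4 rose by 0.83 on LIF removal over both genotypes (SE 0.12, adjusted p = 0.00452) and by 0.94 in knockout cells (SE 0.15, adjusted p = 0.0247), and the wild type libraries differed by 0.60. In knockout cells alone these 2 genes were again the only ones of the 10 past the threshold, where 6.92% of all tested genes were called, 3.05% higher and 3.88% lower. That call was lost for both genes without number 1 with LIF (adjusted p = 0.0621 for Dusp4 and 0.0650 for Dusp6) and without number 2 after LIF removal (0.0697 and 0.0603), and for Dusp4 also without number 2 with LIF (0.0609).

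The Sprouty genes encode membrane-associated inhibitors of receptor signalling to RAS and ERK. None of the 3 passed the threshold on LIF removal: the difference over both genotypes was -0.03 for Spry1 (SE 0.13, adjusted p = 0.878), 0.03 for Spry2 (SE 0.12, adjusted p = 0.883) and -0.04 for Spry4 (SE 0.13, adjusted p = 0.848). The signs of these 3 values turn with the scaling or with a left-out library, while the values stay within 0.18 of 0. Spred1, whose protein brings the RAS inactivator neurofibromin to the membrane, gave 0.31 (SE 0.16, adjusted p = 0.203). Etv4 and Etv5, transcription factors of the PEA3 subfamily, gave -0.19 (SE 0.17, adjusted p = 0.441) and -0.18 (SE 0.09, adjusted p = 0.207).

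The immediate early genes did not pass either. Egr1 gave 0.35 (SE 0.19, adjusted p = 0.226), and passed without number 1 with LIF (0.58, adjusted p = 0.0482). Fos, a subunit of the AP-1 transcription factor, stood at 2.80 and 5.12 FPKM in knockout and 2.76 FPKM in wild type cells after LIF removal, and at 2.42 and 2.10 FPKM in knockout and 1.23 FPKM in wild type cells with LIF. Libraries without LIF were all above those with it, by 0.63 over both genotypes (SE 0.21, adjusted p = 0.0677). Fos passed the threshold without number 1 after LIF removal (0.84, adjusted p = 0.0284), and number 2 after LIF removal alone held 5.12 FPKM. Its promoter is shown as that of the classical immediate early gene of the set. Capitals mark CGGAA, the GC box GGGCGG, the core TGACGT of cAMP response elements, and TATAAA, on either strand. CGGAA occurred at -225 and -76, the second overlapping the GC box at -74, TGACGT at -66 and TATAAA at -33.
Fos, chr12:85473640-85473889, plus strand: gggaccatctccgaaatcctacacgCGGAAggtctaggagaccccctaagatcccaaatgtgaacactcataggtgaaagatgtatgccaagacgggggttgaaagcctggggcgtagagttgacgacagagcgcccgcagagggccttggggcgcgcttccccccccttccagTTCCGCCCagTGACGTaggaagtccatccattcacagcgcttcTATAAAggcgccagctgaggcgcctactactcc

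The second question was how these genes differed between Hnrnpf knockout and wild type libraries. Over both media, 4 knockout against 2 wild type libraries, the inhibitor genes Dusp4, Spry1 and Spry4 were lower in knockout cells and the immediate early gene Egr1 was higher. The fit counts these libraries as independent, although within a number Hnrnpf was alike in the 2 media, and its p-values do not allow for such a link. Of all tested genes 10.5% were called. Of the 10 genes 3 were called lower, where 4.67% of all tested genes were, and 1 higher, where 5.79% were. With each chromosome's median removed, an alternative described below, 381 of all tested genes were called lower and 333 higher, against 550 and 682. The median of the 10 was -0.38, against -0.03 for all tested genes, and 7 of the 10 values were negative. Of the 7 ESC, 5 epiblast, 2 primitive endoderm, 2 mesoderm and 3 neural markers tested, 0 passed in this comparison under limma. It averages over the media, and some lists turned sign between them. The knockout median was 0.82 with LIF and -0.39 after LIF removal for the epiblast list. It was 0.42 and -0.47 for the neural list and -0.16 and 0.04 for the ESC list. The primitive endoderm (0.42 and 0.48) and mesoderm (0.16 and 0.51) lists stayed positive. Their part in the values of the 10 genes was not tested. In 4 genes, Dusp4, Spry1, Spry4 and Spred1, every knockout library lay below both wild type libraries, as in 13.0% of all tested genes. In 1, Egr1, every knockout library lay above them, as in 11.9%. Without either wild type library the comparison falls back on a single medium and 0 of the 10 pass, so these calls rest on both wild type libraries together.

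Dusp4 was 57.4% and 63.1% of wild type in the knockout libraries after LIF removal and 49.6% and 43.8% with LIF, a difference of -0.88 over both media (SE 0.13, adjusted p = 0.0111). Spry1, with 17.98 and 17.96 FPKM in knockout and 32.3 FPKM in wild type cells after LIF removal, and 20.7 and 15.8 FPKM in knockout and 34.1 FPKM in wild type cells with LIF, differed by -0.85 (SE 0.14, adjusted p = 0.0128). The 4 knockout libraries and the 2 wild type libraries formed separate ranges, and in knockout cells the libraries without LIF lay between those with it. Spry1 thus differed with genotype and showed no detectable difference with LIF, whereas Dusp4 differed with both. The Spry1 promoter is shown because Spry1 was called with genotype and not with medium. The part of promoter motifs in these differences was not tested. Capitals mark the GC box, found once at -60, and CGGAA was not found in this window.
Spry1, chr3:37639697-37639946, plus strand: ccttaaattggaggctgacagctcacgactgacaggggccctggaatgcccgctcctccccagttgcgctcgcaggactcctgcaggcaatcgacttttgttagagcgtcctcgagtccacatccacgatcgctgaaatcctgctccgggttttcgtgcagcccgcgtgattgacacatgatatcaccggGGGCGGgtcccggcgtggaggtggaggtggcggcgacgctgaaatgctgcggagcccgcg

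These promoters are the 250 bases before the RefSeq gene start on GRCm38.p6, written 5′ to 3′ on the gene's strand; 6 of the 10 genes were used (Spred1, Spry1, Dusp6, Fos, Spry2 and Etv5). Both strands of all 6 were searched. Of 32851 promoter windows of the same length, 25.2% held CGGAA, 32.7% the GC box GGGCGG, 6.47% TGACGT and 12.4% TATAAA. The longer ETS core CCGGAA (3952 windows, always overlapping CGGAA), the CArG box bound by serum response factor (1.47%) and the EGR site GCGGGGGCG (2.57%) were not found in these windows. Bases beyond these 250 were not searched, so a serum response element further upstream of Fos would be missed. Spred1 held CGGAA at -17 and the GC box at -110 and -7. Of the motifs searched, the window of Spry2 held none. Etv5 has 2 windows, of which 1 held the GC box, at -215, -99 and -55, and the other held none of the motifs. For that other window and for Spred1, the bases after the RefSeq start were not found near the beginning of a GENCODE M21 transcript. Positions there are from the RefSeq start only. A match is a description of letters and not a bound site.

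Spry4 stood at 15.3 and 14.9 FPKM in knockout and 25.6 FPKM in wild type cells after LIF removal, and at 17.4 and 17.0 FPKM in knockout and 21.6 FPKM in wild type cells with LIF. Number 1 and number 2 differed little, and the gap to wild type in these libraries was wider after LIF removal. The difference over both media was -0.52 (SE 0.13, adjusted p = 0.0478), at the edge of the threshold: it passed in 5 of 17 settings tried, with adjusted p between 0.0294 and 0.435. Spry2, at 36.3 and 33.2 FPKM in knockout and 45.8 FPKM in wild type cells after LIF removal, and at 39.9 and 33.2 FPKM in knockout and 39.1 FPKM in wild type cells with LIF, gave -0.25 (SE 0.13, adjusted p = 0.260). Dusp6 gave -0.39 (SE 0.14, adjusted p = 0.124; 0.0344 with the number 1 knockout libraries alone), with its knockout libraries at 62.5% and 77.7% of wild type after LIF removal and 73.5% and 91.7% with LIF.

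Egr1 encodes a zinc finger transcription factor and moved the other way. It stood at 33.1 and 26.8 FPKM in knockout and 17.5 FPKM in wild type cells after LIF removal, and at 32.5 and 20.5 FPKM in knockout and 10.8 FPKM in wild type cells with LIF. Each number 1 library was higher than its number 2 counterpart, and both were above both wild type libraries. Egr1 rose by 0.96 over both media (SE 0.20, adjusted p = 0.0259), and without number 1 after LIF removal the adjusted p was 0.0548. Fos gave 0.45 (SE 0.22, adjusted p = 0.237) and overlapped between genotypes. Of the 14 other immediate early genes tested, 0 passed in this comparison under limma, with a median of 0.10. Of the 7 stress response genes, 0 passed, with a median of 0.06.

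**Figure D2:**
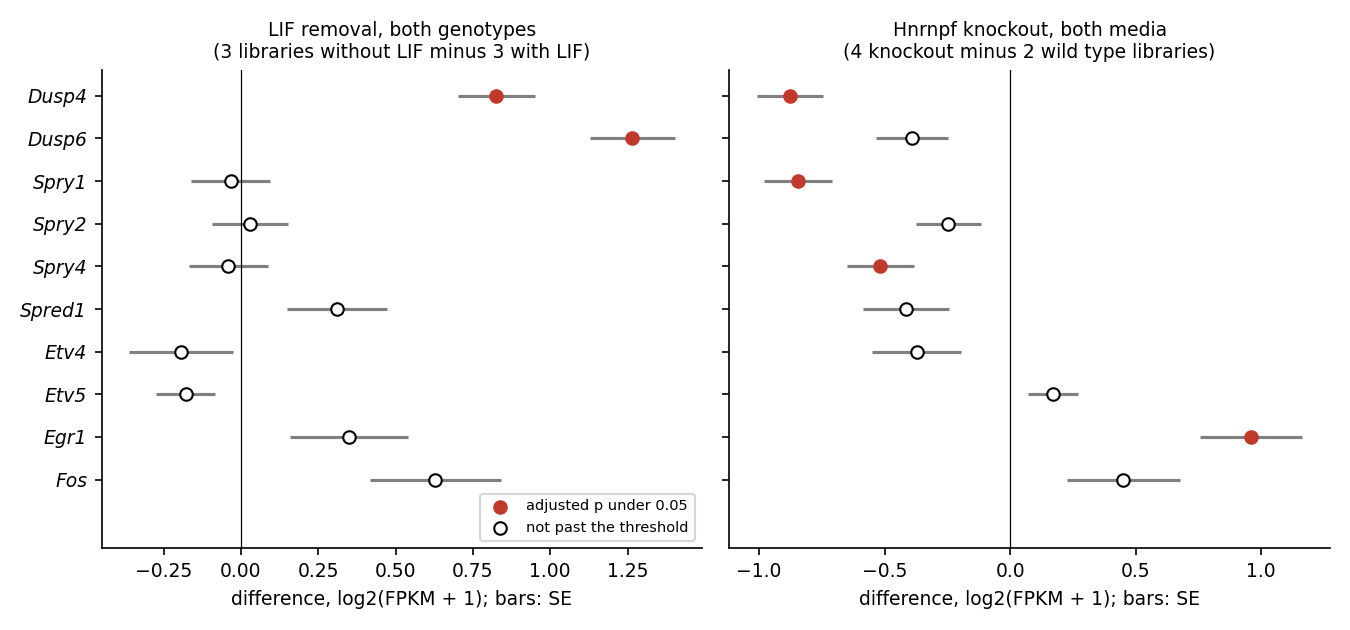
Difference of each gene on the log2(FPKM + 1) scale (horizontal axes) for LIF removal over both genotypes, left, and for Hnrnpf knockout over both media, right; bars are standard errors, and filled points passed an adjusted p of 0.05. Dusp4 and Dusp6 are the filled points on the left at 0.83 and 1.27, and on the right Dusp4, Spry1 and Spry4 lie below 0 and Egr1 above.

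Within a single medium, 2 knockout libraries against 1 wild type library, none of the 10 genes passed. With LIF 0.0424% of all tested genes were called. An unadjusted p under 0.05 was reached by 16.7% of all tested genes and by 4 of the 10: Dusp4 (-1.05, SE 0.18, adjusted p = 0.0989), Spry1 (-0.88, adjusted p = 0.126), Spred1 (-0.77, adjusted p = 0.121) and Egr1 (1.19, adjusted p = 0.129). After LIF removal 0.0594% of all tested genes were called. Such a p was reached by 15.5% of all tested genes and by 5 of the 10: Spry1 (-0.81, SE 0.21, adjusted p = 0.159), Etv4 (-0.75, adjusted p = 0.154), Spry4 (-0.72, adjusted p = 0.151), Dusp4 (-0.71, adjusted p = 0.157) and Egr1 (0.73, adjusted p = 0.292). Both lists share Dusp4, Spry1 and Egr1, while Spred1 stands with the first and Etv4 with the second.

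The values of Spred1 and Etv4 by medium are given because they are in 1 list each. Spred1 was at 15.6 and 16.0 FPKM in knockout and 16.5 FPKM in wild type cells after LIF removal, and at 10.6 and 10.5 FPKM in knockout and 18.6 FPKM in wild type cells with LIF. The low libraries were thus both knockout libraries with LIF. Etv4 was at 11.3 and 12.6 FPKM in knockout and 20.8 FPKM in wild type cells after LIF removal, and at 16.4 and 16.9 FPKM in knockout and 16.6 FPKM in wild type cells with LIF. Here the low libraries were both knockout libraries after LIF removal, and with LIF the wild type library lay between the knockout ones. The test of whether the response to LIF removal differed by genotype gave 0.71 for Spred1 (SE 0.25) and -0.75 for Etv4 (SE 0.26), each with an adjusted p of 0.9996 and unadjusted p of 0.0287 and 0.0253, and for no other of the 10 genes an unadjusted p under 0.05. No gene passed that test under limma (0.0%), although 340 of the 11785 (2.89%) had an unadjusted p under 0.05, so a difference in response between genotypes was not shown for any of the 10.

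Etv5, which has been tied to the exit from naive pluripotency, was the steadiest of the set. It stood at 124 and 119 FPKM in knockout and 116 FPKM in wild type cells after LIF removal, and at 143 and 147 FPKM in knockout and 119 FPKM in wild type cells with LIF. The knockout libraries with LIF were the highest, and the difference over both media was 0.17 (SE 0.10, adjusted p = 0.311). Across the 6 libraries Etv5 ran opposite to Spred1 and Dusp4 (Pearson r of -0.97 and -0.96 over the 6 libraries, which are not independent of genotype and medium). Of the 45 pairs among the 10 genes 26 had an r above 0, and the closest pairs were Dusp4 with Spred1 (0.89) and Spry1 with Spry4 (0.89).

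Where a gene lies bears on the genotype comparison, because chromosomes or stretches of them differed between knockout and wild type libraries. Genes of chromosome 11 were higher in the 4 knockout libraries, with medians between 0.42 and 0.48, and those of chromosome 8 had medians of -0.05 and -0.40 in numbers 1 and 2 after LIF removal and of 0.07 and -0.35 with LIF. For chromosome 8, as for Hnrnpf, the numbers thus differed in both media, and libraries of the same number may not be independent samples. All 4 knockout libraries share the chromosome 11 difference, so its part in genes elsewhere cannot be told apart from that of Hnrnpf. On mm10, Etv4 lies on chromosome 11 (101769742 to 101785371) and Dusp4 on chromosome 8 (34807297 to 34819894). Over both media Etv4 gave -0.37 (SE 0.18, adjusted p = 0.221), while the 174 tested genes within 5 Mb of it had a median of 0.48. With each chromosome's median removed, an alternative chosen after seeing the data, Etv4 stood at -0.82 and passed (adjusted p = 0.0336), with Dusp4, Spry1 and Egr1 also past the threshold and Spry4 not (adjusted p = 0.0930). Dusp4 stood 0.78 and 0.65 below wild type in numbers 1 and 2 after LIF removal, where its 25 tested neighbours had medians of 0.28 and -0.21, and 0.96 and 1.13 below with LIF, where they had medians of 0.23 and -0.26. Stretches of chromosome 8 went different ways in number 1, where the 34 neighbours of Rasa3 had medians of -0.51 after LIF removal and -0.38 with LIF. A single median per chromosome does not take such stretches into account. The part of chromosome 8 in the Dusp4 values was not tested. The neighbours of Spry1 (34 genes), Spry4 (72) and Egr1 (80) had medians within 0.10 of 0 in all 4 knockout libraries.

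**Figure D3:**
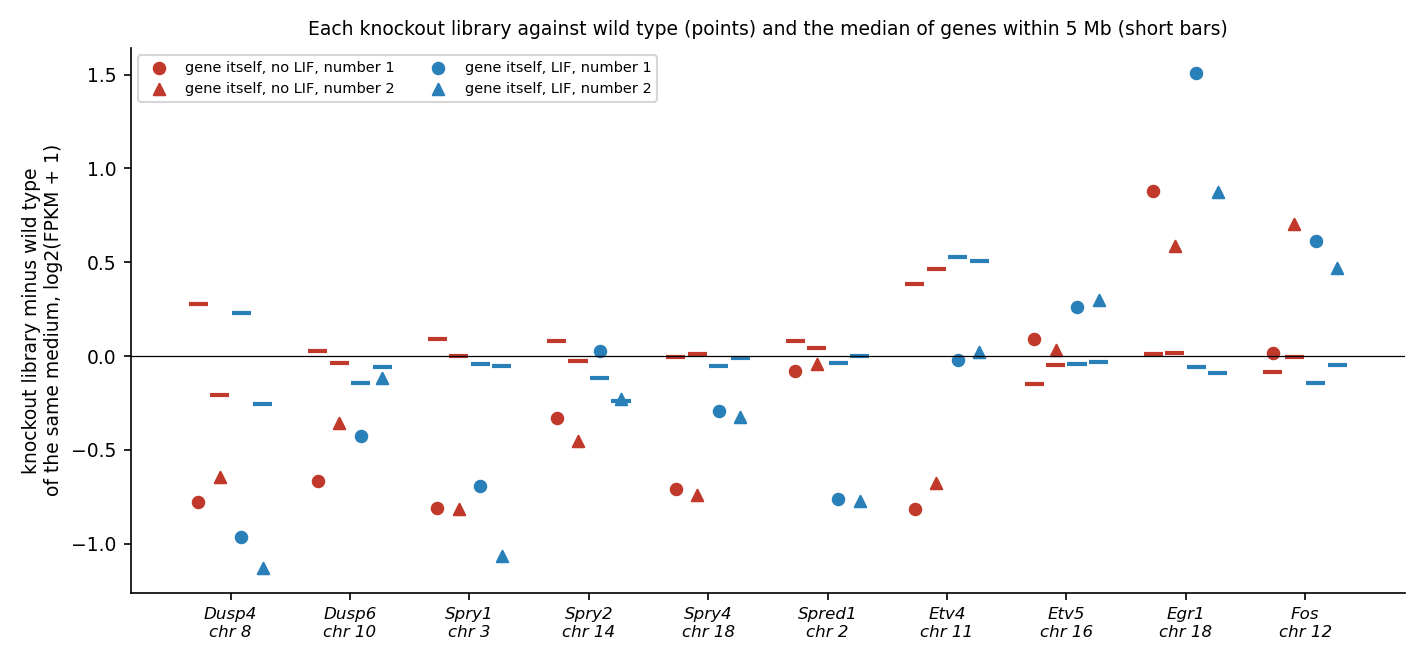
Each knockout library minus the wild type library of the same medium on the log2(FPKM + 1) scale (vertical axis), for each gene and its chromosome (horizontal axis); points are the gene itself, short bars the median of tested genes within 5 Mb, red without and blue with LIF, circles number 1 and triangles number 2. Dusp4 lies below its neighbours in all 4 libraries, and Etv4 lies below its raised neighbours on chromosome 11 in all 4.

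The inputs of the pathway, from lists chosen by function, moved as follows. For the counts in this and the next lists, 8.73% of all tested genes were called higher and 12.7% lower on LIF removal. In knockout cells over both media 5.79% were called higher and 4.67% lower. Of 7 FGF ligand genes tested, 3 rose and 3 fell on LIF removal. Fgf4, the main ligand of naive ESCs, stood at 39.7 and 27.0 FPKM in knockout and 44.2 FPKM in wild type cells after LIF removal, and at 77.8 and 75.4 FPKM in knockout and 108 FPKM in wild type cells with LIF, and it fell by 1.22 (adjusted p = 0.00193). Fgf17 fell by 1.10 and Fgf1 by 0.93. Fgf5, a marker of the epiblast after the naive state, Fgf8, a ligand of the primitive streak, and Fgf13, an intracellular member of the family that is not secreted, rose by 3.56, 2.42 and 1.46. Ligand genes thus changed in opposite directions while Dusp4 and Dusp6 rose. In knockout cells Fgf15 (-1.71, SE 0.24, adjusted p = 0.0108) and Fgf17 (-0.73, adjusted p = 0.0311) were lower over both media, Fgf4 gave -0.46 (adjusted p = 0.0950), and 0 of the 7 were called higher. Fgf15 gave 0.07 on LIF removal (adjusted p = 0.858), and Fgf1, Fgf5, Fgf8 and Fgf13 gave -0.62, 0.23, 0.10 and 0.35 in knockout cells.

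Fgfr1, the receptor gene with the highest FPKM here, changed in the same directions as Dusp4 in both comparisons. It stood at 30.4 and 35.1 FPKM in knockout and 60.3 FPKM in wild type cells after LIF removal, and at 21.9 and 20.5 FPKM in knockout and 38.9 FPKM in wild type cells with LIF. It rose by 0.61 on LIF removal (SE 0.11, adjusted p = 0.00772) and was lower in knockout cells (-0.86, SE 0.11, adjusted p = 0.00975). Fgfr1 lies on chromosome 8 too, where its 45 tested neighbours had medians between -0.18 and -0.29 in the 4 knockout libraries. The other tested receptor and coreceptor genes, Fgfr2, Fgfrl1 and Flrt3, did not pass in either comparison: they gave -0.03, -0.34 and 0.58 on LIF removal and -0.10, -0.24 and 0.11 in knockout cells.

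For the RAS to ERK cascade itself, 23 genes are described here, which is not the whole cascade. On LIF removal 5 of the 23 fell, where 12.7% of all tested genes were called lower. Among them were Mapk3 (-0.48), which encodes ERK1, the ERK substrate kinase gene Rps6ka1 (-0.44), Rras (-0.44) and the MEK gene Map2k2 (-0.46). The median of the 23 on LIF removal was -0.04, against -0.03 for all tested genes, with 10 values positive and 13 negative. In knockout cells Mapk3 and Map2k2 (-0.60) were lower, where 4.67% of all tested genes were called lower, and 21 did not pass. Mapk3 stood at 81.0 and 77.5 FPKM in knockout and 122 FPKM in wild type cells after LIF removal, and at 124 and 102 FPKM in knockout and 165 FPKM in wild type cells with LIF (-0.58, SE 0.11, adjusted p = 0.0203). The median of the 23 in knockout cells was -0.05, against -0.03 for all tested genes.

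Of 12 other feedback genes tested, 1 rose and 2 fell on LIF removal. Errfi1, an inhibitor of EGF receptors, rose by 0.69, Lrig1 fell by 0.70, and Dusp9, an X-linked ERK phosphatase gene, gave -1.41 (SE 0.15, adjusted p = 0.00158). Dusp9 stood at 31.7 and 42.4 FPKM in knockout and 50.5 FPKM in wild type cells after LIF removal, and at 109 and 81.1 FPKM in knockout and 150 FPKM in wild type cells with LIF. Among ERK phosphatase genes, Dusp9 fell while Dusp4 and Dusp6 rose. In knockout cells 2 of the 12 were lower, Rasa3 (-0.92), on chromosome 8 where its 34 neighbours had medians between -0.33 and -0.51, and Lrig3 (-0.70), and none was higher. The receptor antagonist gene Il17rd, often induced together with Sprouty genes, gave -0.61 (adjusted p = 0.0535). The median of the 12 was -0.40 in knockout cells, close to the -0.38 of the 10 genes. Of the 14 other immediate early genes 7 rose on LIF removal and none fell, among them Klf6 (0.94, SE 0.11, adjusted p = 0.00176), Jun (1.68), Btg2 (0.998) and Fosl2 (1.12). The median of the 14 was 0.49, against -0.03 for all genes. Of 5 serum response and ETS factor genes tested, Ets1 (1.01) and Elk4 (0.61) rose, and 0 passed in knockout cells. Of the stress response list only Hspa1a passed on LIF removal (0.71, adjusted p = 0.0276). Its part in the rise of the immediate early genes was not tested.

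**Figure D4:**
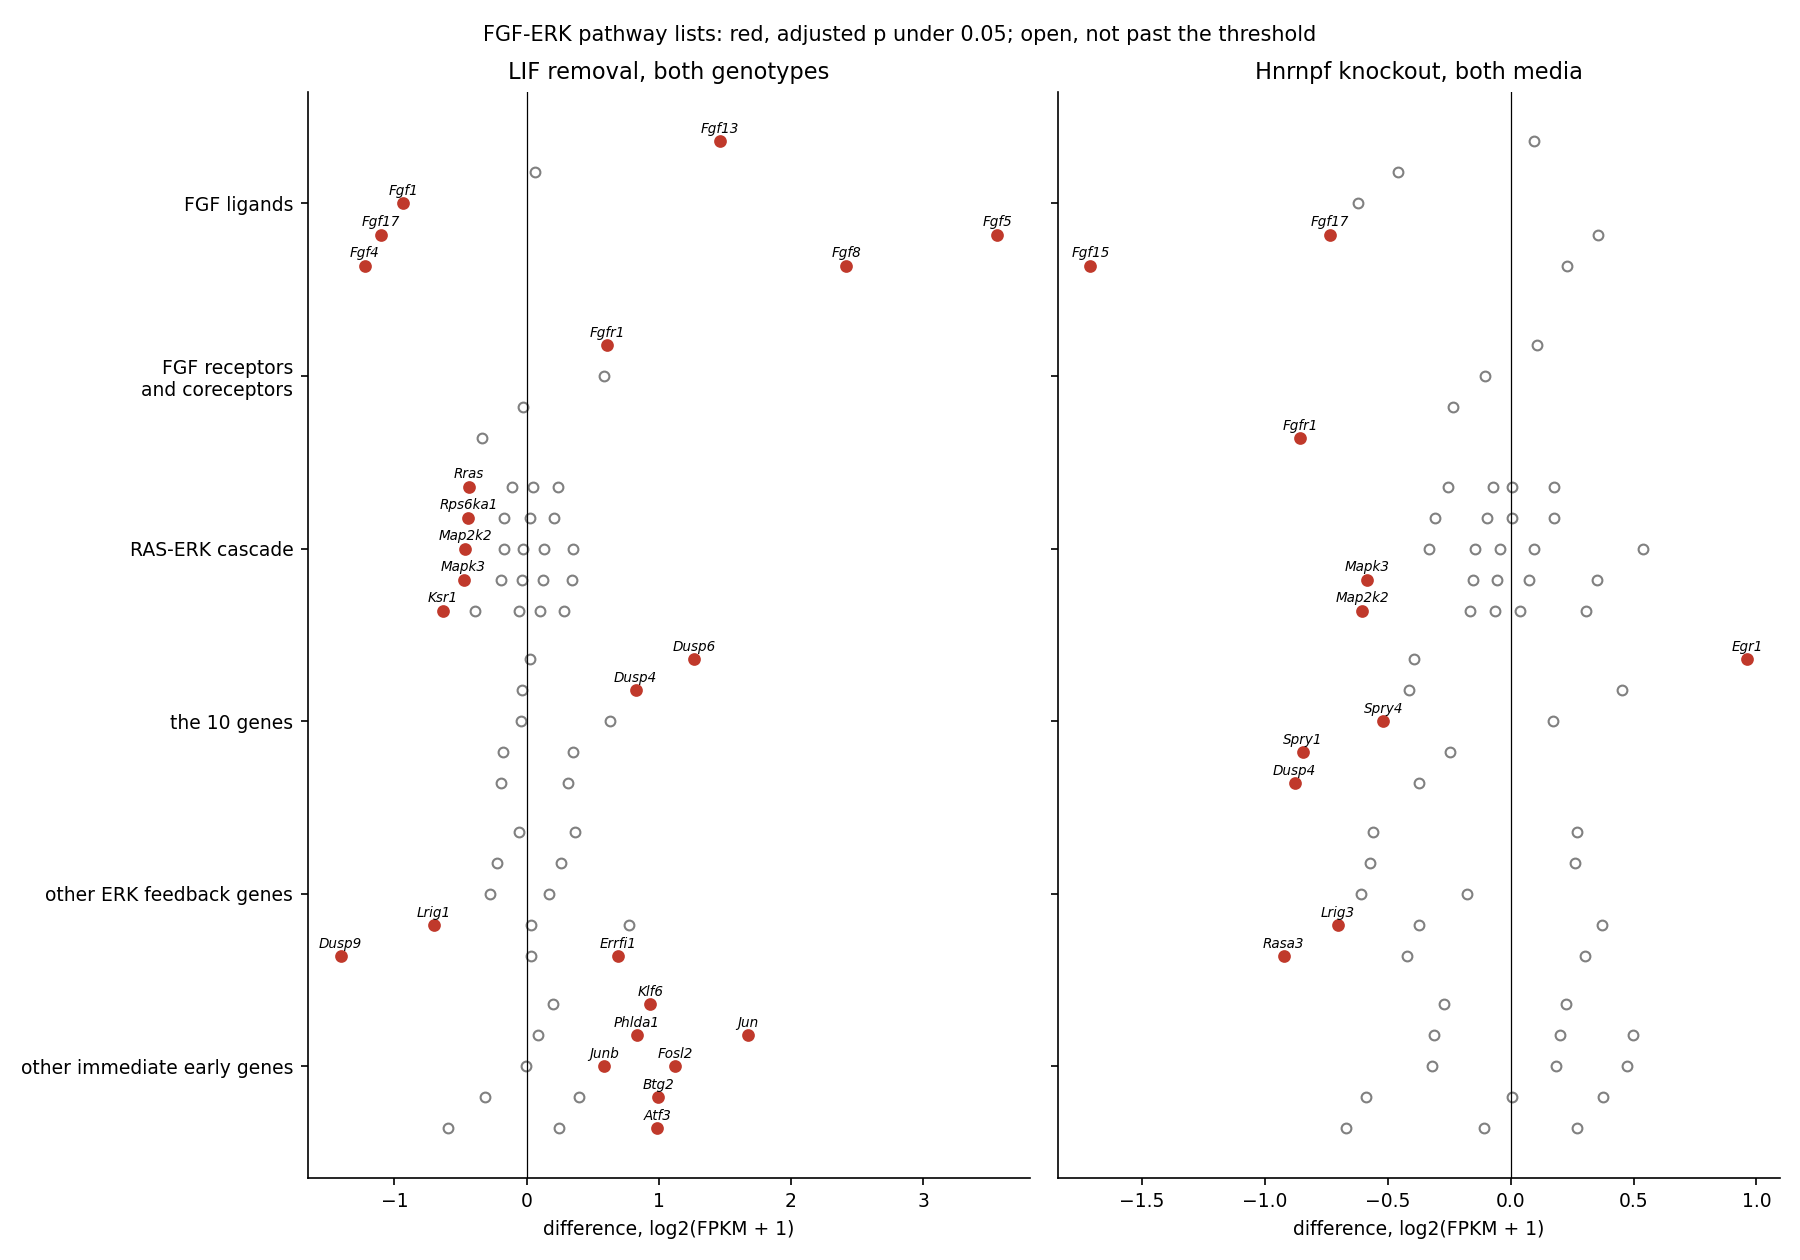
Difference on the log2(FPKM + 1) scale (horizontal axes) of each tested gene of 6 lists (rows) for LIF removal over both genotypes, left, and Hnrnpf knockout over both media, right; red points passed an adjusted p of 0.05 and carry their names, and height within a row has no meaning. On the left 7 of 14 other immediate early genes are red and to the right of 0; on the right Egr1 at 0.96 is the sole red point above 0 among these lists.

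Over the 6 libraries, the genes most like the average pattern of the 10 were Lpcat1 (r = 0.99), Nr6a1 (0.99), Dusp7 (0.98), Sesn3 (0.98) and Akr1e1 (0.98), out of 8289 candidates with a mean of at least 5 FPKM. The average was taken over standardised log2(FPKM + 1) values and was highest in wild type cells after LIF removal. It was 0.77 in that single library and lay between -0.45 and -0.01 in every other one. Being like the average thus mostly means being high in that library. Dusp7, another ERK phosphatase gene, stood at 7.51 and 7.49 FPKM in knockout and 11.6 FPKM in wild type cells after LIF removal, and at 7.74 and 6.79 FPKM in knockout and 8.33 FPKM in wild type cells with LIF. Dusp7 itself did not pass in either comparison (adjusted p = 0.422 on LIF removal and 0.157 in knockout cells). With 6 libraries and this many candidates, high values of r are a description of these libraries.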

How the data were processed

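Total RNA was sequenced in paired ends of 150 bases (Illumina NovaSeq), per the labels' protocols. The authors deposited 1 table of FPKM values per gene symbol and library, made with STAR and Cufflinks on mm10 per the submitters' processing notes; for their versions and the annotation, the sources used here give nothing. No counts were used, so depth is known only as a ratio: against wild type with LIF it was 0.909 and 0.843 in knockout and 1.01 in wild type libraries after LIF removal, and 1.07 and 1.08 in knockout libraries with LIF, from the commonest ratio of values under 0.3 FPKM.

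Differences were fitted with limma 3.58.1 in R 4.3.3 on log2(FPKM + 1) with a trend, two-sided. A fit of genotype and medium (3 residual and 5.08 prior degrees of freedom) gave the effects over both media or genotypes. A fit of 4 groups (2 residual degrees of freedom, from the knockout libraries, and 4.70 prior) gave the rest, and assumes that the lone wild type libraries vary like these. The alternatives were other pseudocounts, filters, scalings, no trend, a replicate block and each library left out. Positions come from GENCODE M21 (GRCm38, the mm10 assembly). Spry1 and Spry4 overlap unnamed models on the other strand, and whether counting used strand is not given. The 10 genes and all lists were chosen with earlier results of these data known. All 10 genes are named, and of other lists up to 4 genes with the lowest p in a comparison and all FGF ligand and receptor genes that passed the filter. The 5 genes most like the average of the 10 are named too. Some genes of the cascade list are not reported here, and its counts leave them out.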

Additional observations from a re-analysis of the deposited data

How the results depend on the processing

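Dusp6 and Dusp4 rose on LIF removal over both genotypes in all 16 settings tried, and with the number 2 knockout libraries alone 4 of the 10 genes were called, Egr1 and Fos being added. That setting called 2529 of the 11785 tested genes, against 2523 with all libraries. In knockout cells the 10 gave between 0 and 2 calls with a library left out, and the genes called in all were between 124 and 821. Over both media in knockout cells Dusp4 and Spry1 passed in 15 of 17 settings, the exceptions being those without a wild type library, Egr1 in 13 and Spry4 in 5. With a library left out the 10 genes gave between 0 and 3 calls there, and all genes between 5 and 994; without either wild type library the fit repeats a single-medium comparison. Without a filter on low values the counts were 335 genes and 2 of the 10 for knockout over both media, 0 and 0 for LIF removal in knockout cells, and 0 for knockout in either medium. With a pseudocount of 0.1 knockout after LIF removal called 13 genes, and 1550 genes and 2 of the 10 (Dusp6 and Fos) differed by a log2 of 1 between the wild type libraries, against 985 and 1. Without the trend, knockout with LIF called 0 genes and knockout after LIF removal 4. Number 2 alone gave 2532 genes for knockout over both media, and removing each chromosome's median gave 714, against 1232. Other ranges with a library left out were 817 to 1924 genes for LIF removal over both genotypes, 4 to 14 for knockout with LIF, 5 to 16 for knockout after LIF removal and 0 to 1 for the difference of responses.

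Labels do not say that a number marks a shared culture, and with the same number in both media the deviations of the knockout libraries correlated at 0.37 across genes. With a replicate block for the number, 3516 genes were called for LIF removal over both genotypes, against 2523. For knockout over both media 2147 were called and for LIF removal in knockout cells 2621, against 1232 and 816. Under the replicate block Fos (adjusted p = 0.0408) was added on LIF removal, Dusp6 (0.0390) for knockout over both media and Spred1 (0.0248) for LIF removal in knockout cells. The block fits wild type and each number as separate levels. For knockout over both media this takes the spread between the numbers out of the error. Its p-values there, that of Dusp6 included, do not cover that spread.

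The following values changed sign in at least 1 setting, and none passed the threshold in the setting where its sign was turned. After quantile normalization LIF removal over both genotypes gave 0.0215 for Spry1 and 0.00115 for Spry4, and in knockout cells 0.0276 for Spry1 and 0.00197 for Spry2; median ratio scaling gave 0.00839 for Spry1 in knockout cells. Spry4 was at 0.0296 with number 1 alone and 0.0285 with number 2 alone, and Spry1 at 0.0495 with number 2 alone. With a library left out, LIF removal over both genotypes ranged from -0.14 to 0.0678 for Spry1, from -0.0668 to 0.13 for Spry2 and from -0.18 to 0.00905 for Spry4, and in knockout cells from -0.20 to 0.18 for Spry1, from -0.20 to 0.0620 for Spry2 and from -0.12 to 0.52 for Egr1. Knockout with LIF ranged from -0.23 to 0.0267 for Spry2 and from -0.0202 to 0.0220 for Etv4, knockout over both media from -0.75 to 0.000886 for Etv4, and the difference of responses from -0.12 to 0.25 for Spry1 and from -0.53 to 0.16 for Fos. Between the wild type libraries, compared without a test, the difference ranged from -0.0326 to 0.102 for Etv5 and from -0.0784 to 0.00937 for Spry1 over 4 settings. The causes were not tested. Low FPKM limits Fos most, since reads behind its values are unknown.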
